A study of Homo sapiens with 5 samples.

Results

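Desmosomes are the spot-like junctions that tie the keratin networks of neighbouring epithelial cells together. The 10 genes described here encode the parts of that junction that are found in simple epithelia, with some partners from stratified epithelium. They are the desmosomal cadherins DSC2 and DSG2, the armadillo proteins plakoglobin (JUP) and plakophilins 1, 2 and 3 (PKP1, PKP2, PKP3), the plakins desmoplakin (DSP), periplakin (PPL) and envoplakin (EVPL), and ladinin 1 (LAD1). The genes were taken by name, together with every probe that the array platform's annotation assigns to them, which gave 22 of the 47318 probes and 10 of the 20044 genes with a probe. The groups are 4 trastuzumab-resistant lines, named N87-TR1 to N87-TR4, with 1 array each, and the trastuzumab-sensitive line NCI-N87, with 1 array. All 5 are labelled as gastric cancer cell lines and were kept in the same medium. Trastuzumab is an antibody against the receptor ERBB2. The labels do not say how the resistant lines were derived, whether each is a clone, or whether the antibody was present when RNA was taken from the subconfluent cultures, so the p-values below speak only of the spread among these 4 arrays, which may be technical.

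In a desmosome the cadherins of both types, desmocollins and desmogleins, meet those of the next cell, plakoglobin and the plakophilins bind the cadherin tails, and desmoplakin joins this plaque to keratin filaments. Periplakin and envoplakin are related linker proteins that bind keratin and, in stratified epithelium, become part of the cornified envelope. Ladinin 1 was first described as an anchoring filament protein of epithelial basement membranes. In glandular epithelium such as that of the stomach DSC2 and DSG2 are the usual desmosomal cadherins, while DSC3 and DSG3 belong mainly to stratified epithelium.

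Levels below are log2 values after background correction and quantile normalization of the scanner signals. A probe counts as detected on an array when its deposited detection p-value, which sets it against negative controls, is under 0.01. The number of genes detected lay between 10248 and 11069 in the resistant lines and was 10381 in NCI-N87, and the median scanner signal lay between 138.8 and 158.2 in the resistant lines and was 133.8 in NCI-N87. Across 12478 genes, which are not independent replicates, a resistant line correlated with another at r = 0.943 to 0.979 and with NCI-N87 at r = 0.752 to 0.765. Of 11 markers of epithelial identity, 4 or 5 were detected in each resistant line and 10 in NCI-N87. Their summed normalized signal was 1612 to 3604 in the resistant lines and 97992 in NCI-N87, and EPCAM, CDH1, KRT18 and MUC1 were detected on every array. The sum is of linear values, so that the brightest markers weigh most, with KRT19 at a log2 level of 15.50 in NCI-N87. Of 8 fibroblast markers only COL1A1 was detected, in N87-TR1, and of 6 endothelial markers none was detected on any array. Of 9 leukocyte markers only CD14 was detected in the resistant lines, against CD2, CD14 and ITGAM in NCI-N87.

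RNA of both desmosomal cadherins, of desmoplakin, of JUP and of PKP2 was detected in every resistant line, while that of PKP3, PPL, EVPL and LAD1 was detected in NCI-N87 alone. Of the 9 genes with a detected probe, 1 was higher (DSC2) and 6 were lower (PKP2, PKP3, JUP, PPL, EVPL and LAD1) in the resistant lines at a Benjamini-Hochberg adjusted p under 0.05 by limma. DSG2 and DSP did not pass, and PKP1 was not detected on any array. Over all 12478 genes tested, 12.6% were higher and 10.6% were lower by the same rule, 23.2% in either direction. PKP3, PPL, EVPL and LAD1 entered the test only through their signal in NCI-N87, so they had to be lower in the resistant lines and are described by their levels. The same holds for any gene or probe detected in 1 group alone, and those of them that passed are given no p between these groups below. Among all calls, 532 of the 1322 lower genes were detected in no resistant line and 773 of the 1573 higher genes were not detected in NCI-N87. When only the 8701 genes detected on all 5 arrays were fitted, 5 of the 10 genes remained in the test, of which 1 was higher, 2 were lower and 2 did not pass, against 9.55% higher and 7.28% lower among all those genes. For 7 of the 9 genes tested all 4 resistant lines lay below NCI-N87, which held for 31.7% of all genes. The 7 include PKP3, PPL, EVPL and LAD1, for which the detection filter fixed this, beside PKP2, JUP and DSP. For the other 2, DSC2 and DSG2, all 4 lines lay above NCI-N87, which held for 36.9%. The summed signal of the epithelial markers given above moved in the same direction as the 6 lower genes, and its part in them was not tested. In RNA from whole cultures, fewer cells that express a gene and less RNA per cell cannot be told apart.

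**Figure D1:**
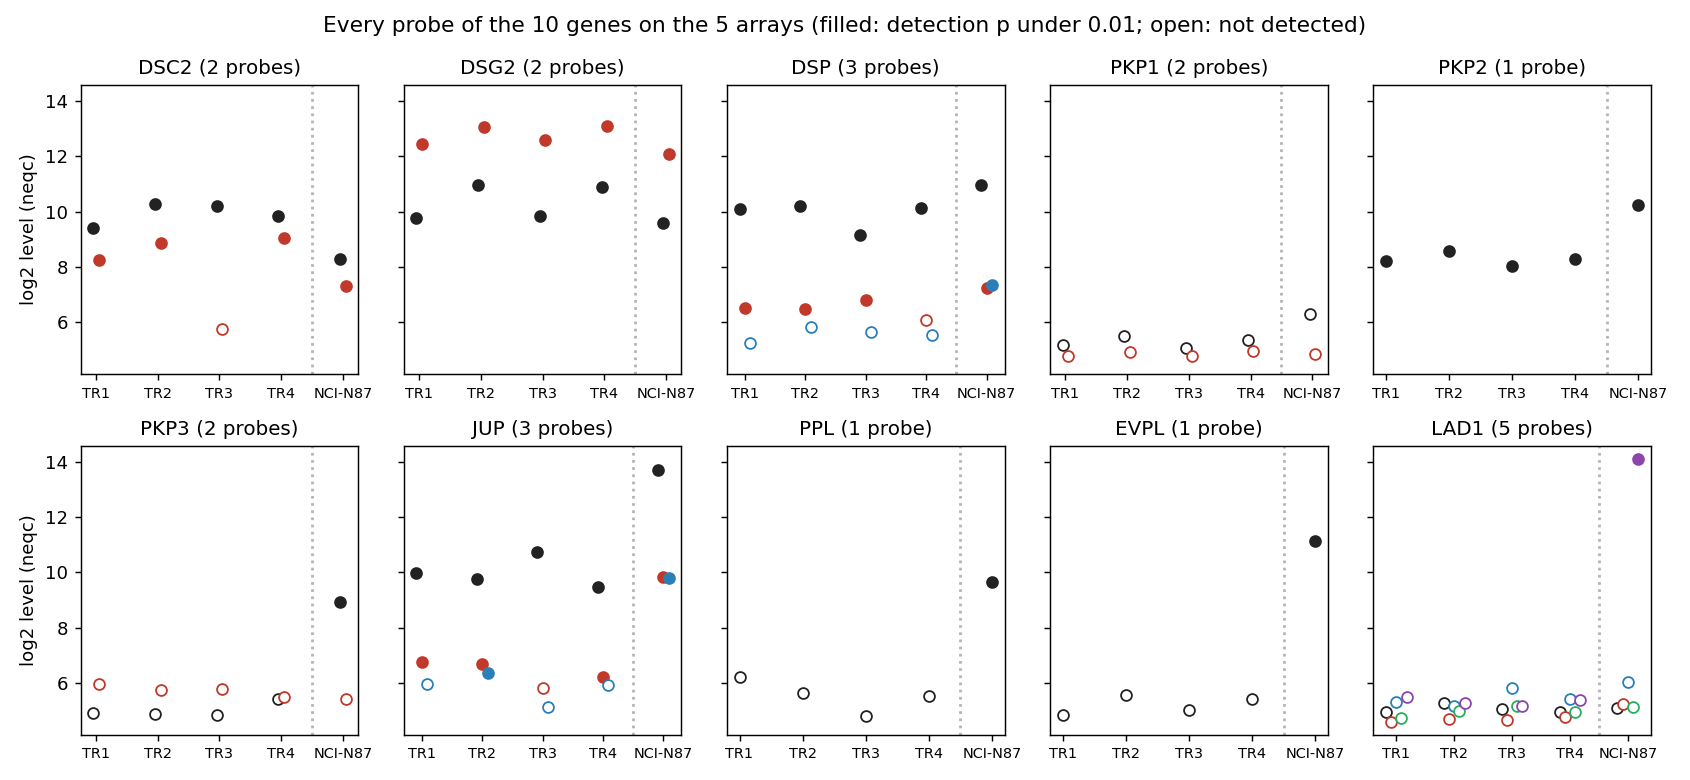
Log2 level (y axis) of every probe of the 10 genes in N87-TR1 to N87-TR4 (TR1 to TR4) and NCI-N87 (x axis), with 1 colour per probe within a panel, filled circles for probes detected at p under 0.01 and open circles for probes not detected. The only LAD1 probe with signal stands at 14.11 in NCI-N87 and at 5.17 to 5.48 in the resistant lines, and 1 DSC2 probe is open in N87-TR3 alone.

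DNA sequence upstream of a transcription start was at hand from RefSeq (GRCh38.p14) for 6 of the 10 genes, in 8 windows, since DSC2 and JUP have 2 starts each. PKP2, PKP3, PPL and EVPL have no entry. The 5 windows that hold the letters CACCTG, searched on both strands and therefore also as CAGGTG, are printed because genes that rose, fell and did not pass all have one. CACCTG is an E-box of the kind bound by zinc-finger repressors of epithelial genes, such as the SNAI and ZEB proteins. Each line gives the 250 bases before the start, read 5′ to 3′ on the gene's strand, with CACCTG or CAGGTG in capitals.
LAD1, chr1:201399325-201399574, minus strand: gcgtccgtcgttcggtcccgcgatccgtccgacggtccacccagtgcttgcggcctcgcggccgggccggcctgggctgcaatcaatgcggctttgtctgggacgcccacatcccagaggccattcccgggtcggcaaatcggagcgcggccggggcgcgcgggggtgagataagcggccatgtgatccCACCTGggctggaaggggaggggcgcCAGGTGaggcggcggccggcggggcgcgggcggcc
JUP, downstream start, chr17:41785977-41786226, minus strand: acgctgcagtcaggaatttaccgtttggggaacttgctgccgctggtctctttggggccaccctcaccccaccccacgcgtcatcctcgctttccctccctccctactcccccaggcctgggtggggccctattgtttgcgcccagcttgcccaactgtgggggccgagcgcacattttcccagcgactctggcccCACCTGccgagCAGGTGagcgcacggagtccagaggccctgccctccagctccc
DSP, chr6:7541421-7541670, plus strand: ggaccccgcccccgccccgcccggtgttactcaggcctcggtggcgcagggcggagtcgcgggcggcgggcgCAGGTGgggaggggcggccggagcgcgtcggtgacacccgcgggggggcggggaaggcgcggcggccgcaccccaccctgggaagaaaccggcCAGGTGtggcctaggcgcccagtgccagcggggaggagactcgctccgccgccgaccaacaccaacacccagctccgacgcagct
DSG2, chr18:31497927-31498176, plus strand: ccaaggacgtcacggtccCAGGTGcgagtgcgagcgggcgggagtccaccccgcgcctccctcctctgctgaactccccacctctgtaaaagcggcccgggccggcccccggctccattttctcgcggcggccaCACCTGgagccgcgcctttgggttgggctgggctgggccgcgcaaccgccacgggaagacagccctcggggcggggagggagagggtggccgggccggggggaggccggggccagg
DSC2, upstream start, chr18:31102422-31102671, minus strand: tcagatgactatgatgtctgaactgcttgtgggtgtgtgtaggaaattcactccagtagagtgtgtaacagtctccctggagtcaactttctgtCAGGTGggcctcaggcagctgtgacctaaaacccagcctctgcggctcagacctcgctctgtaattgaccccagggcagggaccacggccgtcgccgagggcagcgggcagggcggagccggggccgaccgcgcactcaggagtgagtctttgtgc
The letters stand at -61 and -35 from the start in LAD1, at -54 and -43 in JUP, at -178 and -85 in DSP, at -232 and -116 in DSG2 and at -156 in DSC2. They occur in 5 of the 8 windows and 4 of the 8 hold them more than once, whereas of all 35116 windows 17.5% hold them at least once and 2.53% more than once. By gene, 5 of the 6 with a window hold them, against 20.6% of 27305 genes. The 8 windows are 59.6% to 78% G and C, and the shares over all windows and genes were not matched for base content. The windows of DSC3 and DSG3, which are not among the 10 genes and were scanned in the same way, do not hold the letters. The letters AACNNGTT, the core bound by grainyhead-like factors, which is its own reverse complement, are in 0 of the 8 windows and in 3% of all windows. The motifs were chosen after the levels of these genes were known, and a match of letters is a description, not a binding site.

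Among the desmosomal cadherins, DSC2 had levels of 9.40, 10.26, 10.20 and 9.84 in N87-TR1 to N87-TR4, in that order, against 8.28 in NCI-N87. Each resistant line lay above NCI-N87, with N87-TR1 nearest to it. DSC2 thus averaged 9.93 ± 0.40 (SD, n = 4) in the resistant lines and was 3.13-fold higher, a log2 difference of 1.65 ± 0.41 (SE, limma adjusted p = 0.0280). This call is not firm: the adjusted p was 0.0595 without N87-TR2 and 0.0610 without N87-TR4, and it was 0.219 with the mean of both DSC2 probes, which gave a difference of 1.15. DSG2 had levels of 12.43, 13.08, 12.61 and 13.11 in N87-TR1 to N87-TR4, against 12.07 in NCI-N87. The groups did not overlap, but the difference of 0.74 ± 0.38 (SE) did not pass (adjusted p = 0.212), with a 95% interval from -0.15 to 1.63. The other DSG2 probe, ILMN_1704196, differed by 0.78 ± 0.56 (SE, adjusted p = 0.386 in the fit of all 16784 detected probes), nearly the same size.

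DSC2 and DSG2 lie in a cluster on chromosome 18 that also holds the desmocollin and desmoglein genes of stratified epithelium. Of the 5 other desmosomal cadherins 2 were tested and moved in opposite directions, so the list has 1 higher and 1 lower. Over all genes tested, 12.6% were higher and 10.6% lower. Each of the 2 was detected in 1 group alone, so the filter fixed its direction. Their median log2 difference of -0.80, against 0.07 over all genes tested, is only the midpoint of 2 opposite values. DSG3, a desmoglein of basal keratinocytes, had a level of 4.84 to 5.11 in the resistant lines, where it was not detected, and 10.14 in NCI-N87. It was at least 14.0-fold lower in the resistant lines. Folds written with "at least" are lower bounds: each array without detection enters at its lowest detected signal, or at the probe's own signal where that is brighter. These bounds are on the background-corrected scale. DSC3, the partner desmocollin, showed the reverse pattern. Its levels were 8.88, 9.29, 8.64 and 9.58 in N87-TR1 to N87-TR4, against 5.53 in NCI-N87, where it was not detected. DSC3 thus stood at least 6.45-fold higher, although its second probe, detected in 3 of the 4 lines, differed by only 1.15 ± 0.64 on the log2 scale (SE). DSC1, DSG1 and DSG4, found in the upper layers of skin or in hair, were not detected on any array. Along the chromosome the tested cadherin genes follow each other as DSC3, DSC2, DSG3 and DSG2, so that a lower gene lies between higher genes and one that did not pass.

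**Figure D2:**
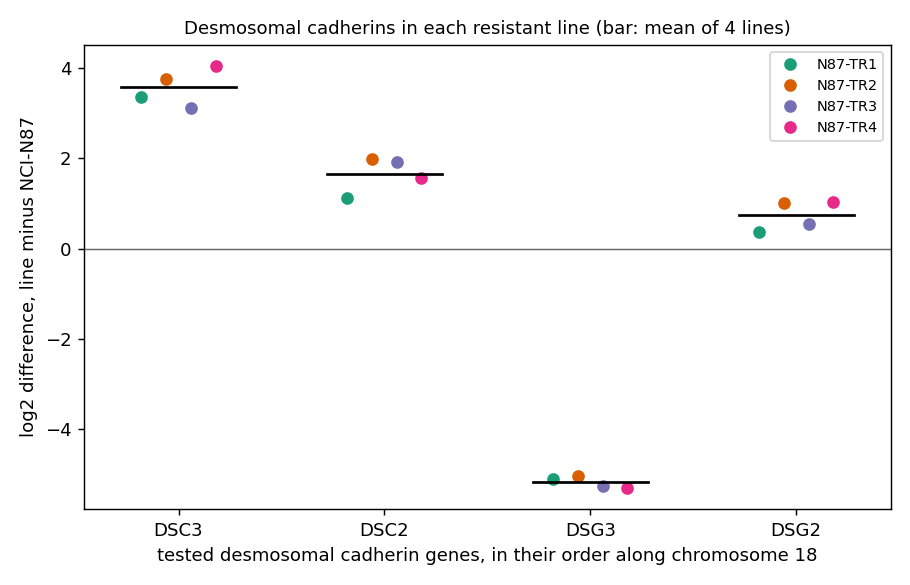
Log2 difference of each resistant line from NCI-N87 (y axis) for the 4 tested desmosomal cadherin genes in their order along chromosome 18 (x axis), with 1 point per line and a bar at the mean of the 4 lines. DSC3 and DSC2 lie above 0 in all 4 lines, with means of 3.57 and 1.65, DSG3 lies below 0 with a mean of -5.17, and DSG2 lies near 0.74.

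RNA of the armadillo proteins that bind the cadherin tails was lower, apart from that of PKP1, and for PKP3 the filter fixed the direction. JUP, which encodes plakoglobin, had levels of 9.97, 9.75, 10.75 and 9.46 in N87-TR1 to N87-TR4, against 13.71 in NCI-N87. It remained detected in every line and was highest in N87-TR3 among the resistant ones. JUP was 13.3-fold lower in the resistant lines, with a log2 difference of -3.73 ± 0.49 (SE, adjusted p = 0.00235). The other JUP probes, ILMN_1741970 and ILMN_2366864, were lower too, but were detected in only 3 and 1 of the 4 resistant lines, so their sizes are less certain. Their differences were -3.48 and -3.96 with background correction and -2.36 and -2.54 without it, against -3.57 without it for the probe given first. PKP2, the plakophilin of simple epithelia and heart, had levels of 8.23, 8.58, 8.03 and 8.27 in N87-TR1 to N87-TR4, against 10.23 in NCI-N87. PKP2 was detected in all lines and was 3.87-fold lower in the resistant ones, with the groups well apart (log2 difference -1.95 ± 0.33, SE, adjusted p = 0.00622). PKP3, a plakophilin that binds most desmosomal cadherins, had levels of 4.91, 4.89, 4.82 and 5.41 in N87-TR1 to N87-TR4, against 8.93 in NCI-N87. It was not detected in any resistant line and was at least 6.03-fold lower there. The second PKP3 probe was detected on no array, with levels of 5.50 to 5.95 in the resistant lines and 5.43 in NCI-N87.

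PKP1, the plakophilin of stratified epithelium, was not detected by either of its probes. Its probe ILMN_1663454 came closest, with a level of 6.28 in NCI-N87, against 5.16, 5.50, 5.06 and 5.34 in N87-TR1 to N87-TR4. With no filter on dim probes PKP1 passed the test at a log2 difference of -1.01 ± 0.24 (SE, adjusted p = 0.0481), and with a detection threshold of 0.05 it did not (adjusted p = 0.0643).

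The plakins split. Desmoplakin, which links the plaque to keratin, had DSP levels of 10.08, 10.19, 9.17 and 10.12 in N87-TR1 to N87-TR4, against 10.97 in NCI-N87. All 4 resistant lines lay below NCI-N87, N87-TR3 the furthest, and the difference of -1.09 ± 0.45 (SE) did not pass (adjusted p = 0.136, 95% interval from -2.16 to -0.01). DSP has 3 probes, which differed in strength. The levels above are those of ILMN_1655614. ILMN_1659749, not detected in N87-TR4, had levels of 6.52, 6.48, 6.79 and 6.07 in N87-TR1 to N87-TR4, against 7.22 in NCI-N87. By that probe N87-TR3 lay nearest to NCI-N87. ILMN_1677032, the probe assigned to the transcript NM_004415, was detected in NCI-N87 alone, at 7.36, against 5.23 to 5.83 in the resistant lines, so that its direction was fixed. With the mean of the 3 probes, that one included, DSP passed at -1.21 (adjusted p = 0.0269). By probe, 1 of the 22 was higher, 9 were lower, 5 did not pass and 7 were not detected on any array, against 10.3% higher and 9.87% lower of all 16784 probes tested, and 5 of the 9 were detected in no resistant line.

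Periplakin and envoplakin, which pair with each other in the cornified envelope, were both below detection in every resistant line. PPL had levels of 6.20, 5.64, 4.78 and 5.52 in N87-TR1 to N87-TR4, against 9.64 in NCI-N87. It was at least 9.89-fold lower in the resistant lines. EVPL had levels of 4.85, 5.54, 5.03 and 5.42 in the same lines, against 11.14 in NCI-N87. It was at least 27.9-fold lower, and each of these genes was read by a single probe.

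LAD1 showed the widest gap of the 10 genes. Its levels were 5.48, 5.27, 5.17 and 5.37 in N87-TR1 to N87-TR4, none of them detected, against 14.11 in NCI-N87. Since the resistant lines lie at background, the difference is a bound, at least 219-fold lower. This rests on 1 probe of 5. The other 4 LAD1 probes, assigned to the same transcript, NM_005558, were not detected on any array, with scanner signals of 81.3 to 150.7 in the resistant lines and 113.9 to 154.5 in NCI-N87, where the fifth probe read 14374.4. Without background correction the log2 differences of PKP3, PPL, EVPL and LAD1 were -2.21, -2.56, -4.05 and -6.89, each smaller in size than the bound given above.

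**Figure D3:**
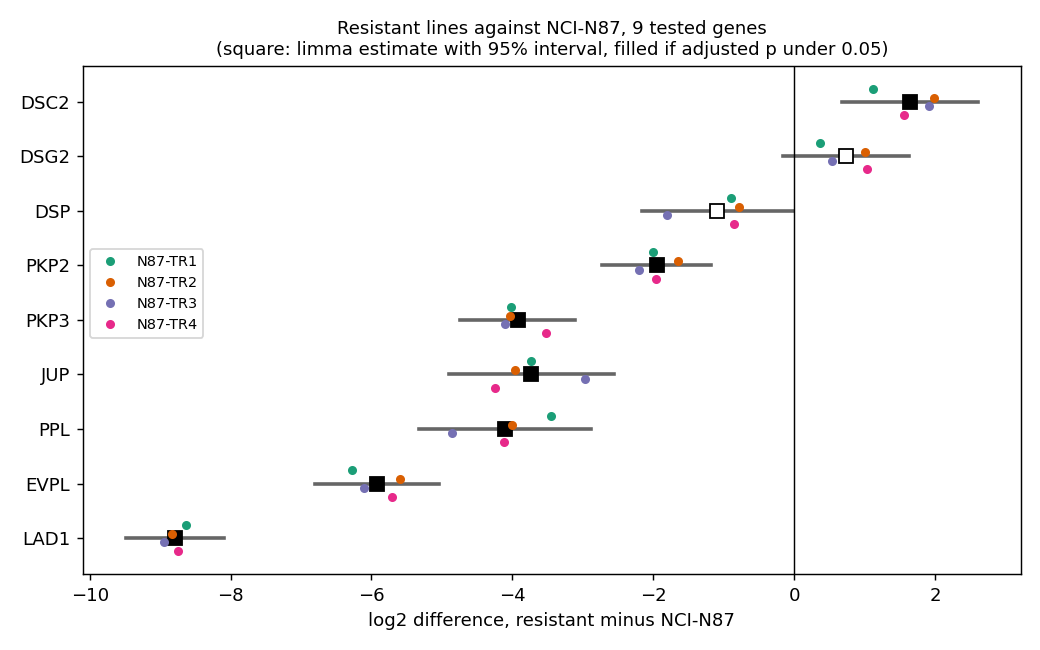
Log2 difference of the resistant lines from NCI-N87 (x axis) for the 9 tested genes (y axis), as the limma estimate (square, filled where the adjusted p is under 0.05) with its 95% interval (bar) and each line's own difference (circles). The estimates run from -8.79 for LAD1 to 1.65 for DSC2, and those of PKP3, PPL, EVPL and LAD1 rest on resistant levels below detection.

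Each resistant line was also set against NCI-N87 by itself, with no replicate and no test. PKP2 and JUP were at least 2-fold lower in each of the 4 lines, and DSC2 was at least 2-fold higher in each. PKP3, PPL, EVPL and LAD1 were also at least 2-fold lower in each. They were below detection in all 4 lines, so the filter fixed their direction and these differences start from background levels. DSG2 was at least 2-fold higher in N87-TR2 and N87-TR4, and DSP was at least 2-fold lower in N87-TR3. Among all 12478 genes, 19.1% were at least 2-fold higher and 17.1% lower in N87-TR1, 18.6% and 16.5% in N87-TR2, 22.2% and 17.6% in N87-TR3, and 18.4% and 16.3% in N87-TR4. These comparisons share the NCI-N87 array.

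Among the resistant lines the 9 genes varied about as much as other genes, with a median SD of 0.34 over the 4 lines, against 0.33 over all genes tested. PKP3, PPL, EVPL and LAD1 lie at background in all 4 lines, so their SDs are not of detected levels. The SDs of the genes detected in all 4 were 0.40 (DSC2), 0.34 (DSG2), 0.48 (DSP), 0.23 (PKP2) and 0.55 (JUP). In tests of each line against the other 3, with the lone array assumed to vary like those 3, 0 of the 9 genes passed for any line. In N87-TR3 3 of them had an unadjusted p under 0.05, as had 18.9% of all genes. DSP was at 9.17 in N87-TR3 and 10.13 ± 0.05 (SD, n = 3) in the others, a difference of -0.96 ± 0.27 (SE, limma adjusted p = 0.140). JUP was at 10.75 in N87-TR3 and 9.73 ± 0.26 (SD, n = 3) in the others, a difference of 1.02 ± 0.31 (SE, limma adjusted p = 0.168). PPL, below detection in all 4, was the third, at 4.78 in N87-TR3 and 5.79 ± 0.36 (SD, n = 3) in the others (limma adjusted p = 0.207). Of all genes, 0.0721% were higher and 0.882% lower in N87-TR3, while limma called 0 genes for N87-TR1 (509 at an unadjusted p under 0.05), 0 for N87-TR2 (327) and 0 for N87-TR4 (176).

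Probes of 1 gene did not always move together in N87-TR3. The DSC2 probe ILMN_1663119, assigned to the transcript NM_004949, was at 10.20 in N87-TR3 and 9.84 ± 0.43 (SD, n = 3) in the other resistant lines. The DSC2 probe ILMN_2381257, assigned to NM_024422, the other splice form of the gene, had levels of 8.24, 8.86 and 9.05 in N87-TR1, N87-TR2 and N87-TR4, but 5.76 in N87-TR3, where it was not detected, and 7.33 in NCI-N87. It was at least 4.15-fold lower in N87-TR3 than in the other resistant lines (log2 difference -2.95 ± 0.38, SE, limma adjusted p = 0.0207 over all probes, and 0.129 without N87-TR4), where 0.483% of all probes were higher and 3.33% lower. Under the alternatives the N87-TR3 difference of this probe ranged from -3.19 to -1.67. The latter is smaller in size than the bound, which is 2.05 on the log2 scale. Over all 4 resistant lines against NCI-N87 this probe did not pass (0.65 ± 1.18, SE, adjusted p = 0.746). For JUP, ILMN_1733811 differed by 1.02 ± 0.32 (SE, adjusted p = 0.139) from the other resistant lines. The other JUP probes, ILMN_1741970 and ILMN_2366864, were not detected in N87-TR3, and their levels there, 5.81 and 5.11, lie at background, so their direction says little. For DSP, the low level of N87-TR3 was that of ILMN_1655614. ILMN_1659749, detected in N87-TR3, went the other way, at 6.79 there and 6.36 ± 0.25 (SD, n = 3) in the other resistant lines. The sources used here do not say whether a probe reads 1 splice form or several.

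**Figure D4:**
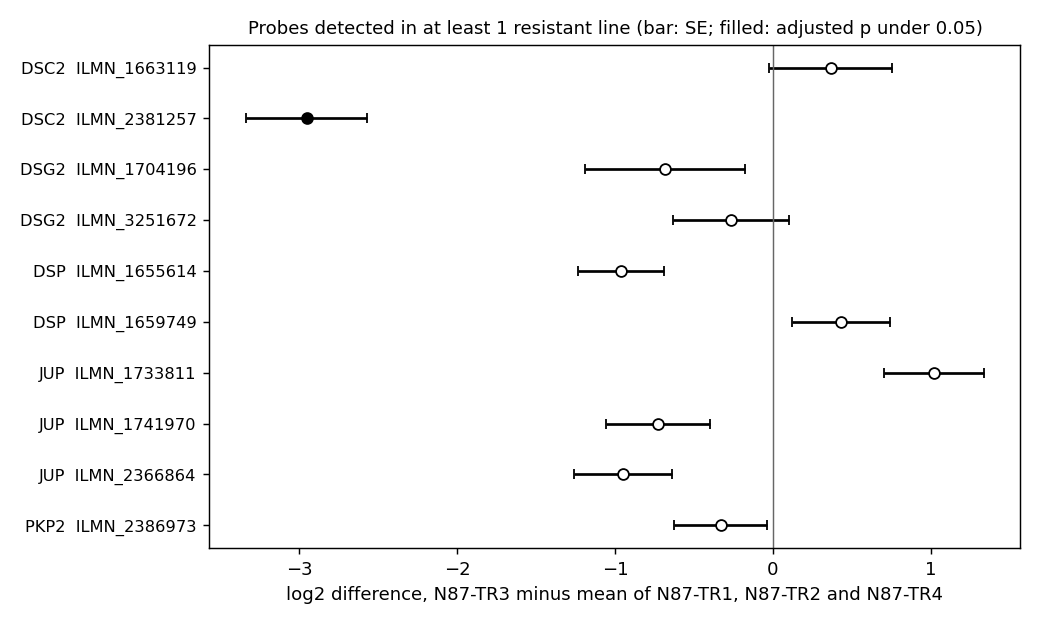
Log2 difference of N87-TR3 from the mean of N87-TR1, N87-TR2 and N87-TR4 (x axis) for the member probes detected in at least 1 resistant line (y axis), with bars of 1 SE and a filled circle where the adjusted p is under 0.05. Only the DSC2 probe ILMN_2381257, at -2.95, is filled. It and both JUP probes left of 0 were not detected in N87-TR3.

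The filaments and junctions to which desmosomes connect were compared through lists of related genes. Keratins, which desmoplakin anchors, had 0 higher and 5 lower of 6 tested, with a median log2 difference of -5.71, against 0.07 over all genes, of which 12.6% were higher and 10.6% lower. Of the 5, 4 were detected in no resistant line, so the filter fixed their direction and, with it, most of that median. KRT19, a keratin of simple epithelia, averaged 4.95 ± 0.26 (SD, n = 4) in the resistant lines, below detection, against 15.50 in NCI-N87. This is at least 576-fold lower. KRT16 was at least 28.7-fold and KRT7 at least 16.5-fold lower. KRT8, the main partner of KRT18, averaged 7.74 ± 1.45 (SD, n = 4) in the resistant lines, with detection in 3 of them, against 13.84 in NCI-N87 (adjusted p = 0.00908). KRT18 was the exception, at 8.09 ± 0.81 (SD, n = 4) in the resistant lines and 7.74 in NCI-N87 (adjusted p = 0.758), although its second probe differed by -2.05 ± 0.70 (SE, adjusted p = 0.0908).

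Of the 3 other plakins tested, 0 were higher and 1 was lower, with a median of -0.49. Over all genes tested, 12.6% were higher and 10.6% lower. PLEC, encoding plectin, which links filaments to several junctions, averaged 6.83 ± 0.43 (SD, n = 4) in the resistant lines, against 10.72 in NCI-N87 (adjusted p = 0.000947). The PLEC values rest on 1 of its 8 probes, as the others were not detected on any array. MACF1, which joins microtubules to actin, and DST did not pass, at -0.49 ± 0.30 and -0.11 ± 0.30 (SE), though the second MACF1 probe did, at -1.37 ± 0.36 (SE, adjusted p = 0.0393). Hemidesmosome genes, which fix the basal side of epithelial cells to the matrix, had 0 higher and 2 lower of 3 tested and a median of -2.51. ITGB4, the integrin chain found in hemidesmosomes, was below detection in all resistant lines and at least 21.1-fold lower. Its partner chain ITGA6 averaged 7.85 ± 0.21 (SD, n = 4) in the resistant lines, against 10.35 in NCI-N87 (adjusted p = 0.00202).

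Adherens junction and armadillo genes had 1 higher and 3 lower of 9 tested, with a median of -1.03. Of all genes tested, 12.6% were higher and 10.6% lower. E-cadherin (CDH1) averaged 8.55 ± 1.01 (SD, n = 4) in the resistant lines, against 13.08 in NCI-N87, and P-cadherin (CDH3) averaged 6.32 ± 1.06 (SD, n = 4), detected only in N87-TR1, against 11.86 in NCI-N87 (adjusted p = 0.00774 and 0.00411). CTNND1, encoding the p120 catenin that stabilises classical cadherins at the membrane, differed by -1.95 ± 0.40 on the log2 scale (SE, adjusted p = 0.0141), with detection in 1 resistant line. Its second probe, also detected in 1, differed by -0.70 ± 0.38 (SE, adjusted p = 0.254). N-cadherin (CDH2) stood at least 80.1-fold higher, at 12.73 ± 0.16 (SD, n = 4) in the resistant lines, against 5.37 in NCI-N87, where it was not detected. CTNNB1, whose product beta-catenin is the closest relative of plakoglobin, did not pass, at 0.45 ± 0.61 (SE, adjusted p = 0.644), and like KRT18, MACF1 and DST it was named after its value was seen. Of 7 desmosome-associated and cornified envelope genes tested, 0 were higher and 1 was lower, with a median of -1.08. That gene was TGM1, a transglutaminase that cross-links envoplakin, at 5.84 ± 0.71 (SD, n = 4) in the resistant lines, against 7.88 in NCI-N87 (adjusted p = 0.0495). Among the resistant lines TGM1 was detected only in N87-TR3, at 6.90.

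Of 13 transcription and splicing regulators of epithelial and desmosomal genes tested, 2 were higher and 5 were lower, with a median of -0.78. The shares over all genes tested were 12.6% higher and 10.6% lower. ELF3 and EHF, related epithelial factors of the ETS family, were at least 24.9-fold and 20.4-fold lower, and GRHL2, a grainyhead-like activator of junction genes, at least 11.7-fold lower. The epithelial splicing regulator ESRP1 was at least 6.82-fold lower. All 4 were below detection in every resistant line and entered the test only through NCI-N87. KLF5 was the fifth lower gene, at -2.42 ± 0.42 (SE, adjusted p = 0.00740). The higher genes were TWIST1 and ZEB2, repressors of epithelial genes, at least 4.79-fold and 1.68-fold higher, both undetected in NCI-N87 and ZEB2 detected in 3 of the resistant lines. OVOL2, a repressor of mesenchymal genes, missed the threshold, at -2.92 ± 0.87 (SE, adjusted p = 0.0521), and ZEB1 and SNAI2 did not pass, at 0.87 ± 0.62 and 1.11 ± 0.48 (SE, adjusted p = 0.362 and 0.151). KLF5, TWIST1, ZEB2, OVOL2, ZEB1 and SNAI2 were named after their values were seen.

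**Figure D5:**
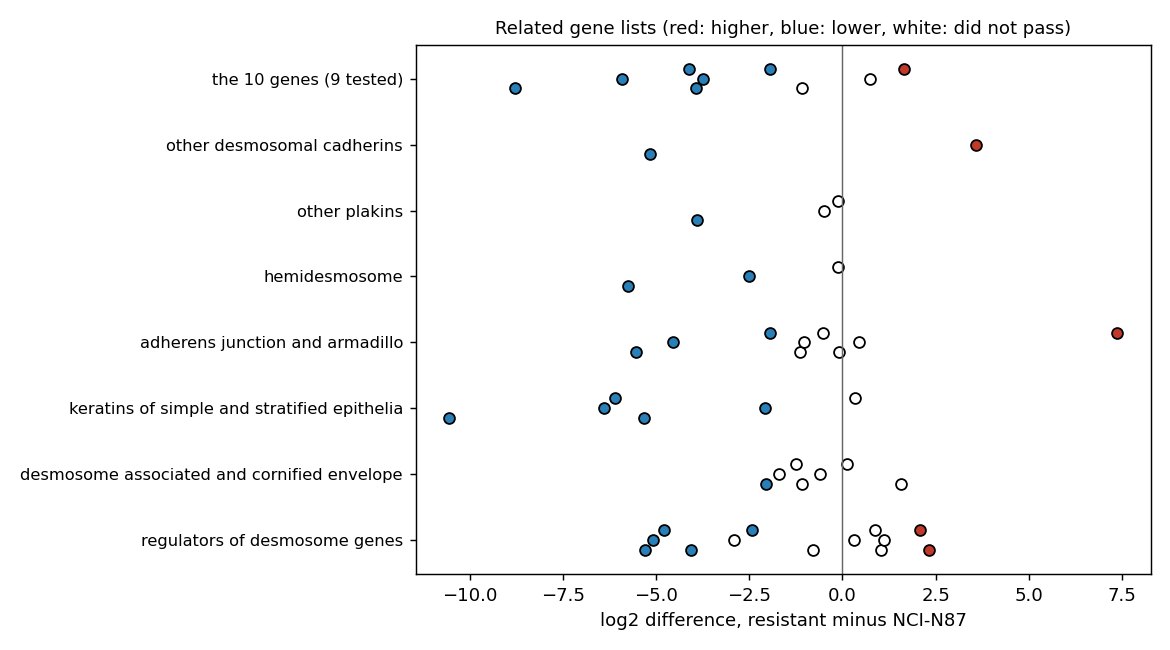
Log2 difference of the resistant lines from NCI-N87 (x axis) for each tested gene of the 10 and of 7 related lists (y axis), with 1 point per gene, red where higher, blue where lower and white where the test was not passed. The keratin points lie furthest to the left, down to -10.55 for KRT19, and the rightmost point is CDH2 at 7.36.

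The profile of JUP, which has the largest difference among the 5 desmosomal genes detected on all 5 arrays, was set against 8678 other genes so detected. The nearest by Euclidean distance between profiles over the 5 arrays, each less its own mean, were DUSP6 (0.216), STARD3 (0.281), SLC35C1 (0.414), ISG15 (0.417) and MIEN1 (0.483), in log2 units. For DSG2, with the smallest difference of those 5, they were HNRNPH3 (0.0978), MAGED1 (0.119), ATF4 (0.143), SLC24A1 (0.166) and TTC19 (0.193). These distances rest on 5 arrays, of which 1 is NCI-N87.

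The nearest tested protein-coding gene on each side of the 10 genes, by the order of the RefSeq table, gave 15 genes that are neither members nor desmosomal cadherins. Of these, 2 were higher, 2 were lower and 11 did not pass, against 12.6% higher and 10.6% lower over all genes tested. SIGIRR, next to PKP3 on chromosome 11, was lower at -1.30 ± 0.36 (SE), with detection in 2 resistant lines. B4GALNT4, on the other side of PKP3, did not pass, at 0.98 ± 0.52 (SE). HAP1, next to JUP on chromosome 17, was lower but detected in NCI-N87 alone, while P3H4 on the other side was not called (-0.65 ± 0.40, SE, adjusted p = 0.293). On chromosome 1, PKP1 and LAD1 are near neighbours with 1 protein-coding gene between them, and the tested genes on their outer sides, TMEM9 and PHLDA3, did not pass, at -0.21 ± 0.30 and -1.09 ± 0.39 (SE, adjusted p = 0.663 and 0.0939). SNRNP48, next to DSP, and B4GALT6, near DSG2, were the higher neighbours, at 1.54 ± 0.33 and 1.76 ± 0.38 (SE, adjusted p = 0.0165 and 0.0182).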

How the data were processed

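RNA of 5 cell lines was measured on Illumina BeadChips, 1 array per line. The deposited scanner table holds a linear signal intensity per probe, not normalized, and a detection p-value per probe beside it, per the file headers. The deposited second table holds intensity values processed by the authors by a method not given in the sources used here, whose array medians are all 146.3, and served as an alternative. GenomeStudio is named in the submitters' processing notes, without a version.

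Probes were named through the platform's annotation, with symbols updated by gene ID through RefSeq. A single symbol was found for 30111 of the 47318 probes and several for 8, while 17199 stayed without a name. Signals were corrected and quantile normalized with neqc (offset 16) in limma 3.58.1 under R 4.3.3. A gene was tested if a probe was detected at p under 0.01 on at least 1 array, and stood by its detected probe with the highest mean. Differences were tested two-sided with lmFit and eBayes (3 residual and 3.86 prior degrees of freedom), with Benjamini-Hochberg adjustment over all 12478 genes or 16784 probes. The lone array of a group is assumed to vary like the others. A pair of arrays held the same signal at no more than 86 probes. With 1 array per line, the number of arrays limits the precision. The fits were tested on simulated data.

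The genes, lists, tests and motifs were chosen with earlier results of these data known. The rule for named genes took every member and, of each list, up to 4 genes past the test with the largest difference. It also took the 5 genes nearest in profile to the members detected on all arrays with the largest and the smallest difference. Others are said to be named after their values were seen, or were taken by position. Alternatives changed the background correction, offset, normalization, detection filter, probe rule, variance model and the lines included.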

Additional observations from a re-analysis of the deposited data

Results flagged for a closer look

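The DSP level of N87-TR3, 9.17 by ILMN_1655614, stood apart from the other 3 resistant lines by a gap large for the range of 4 samples. Chance meets this rule in about 1 of 20 groups. Every member probe detected in at least 1 resistant line was screened by it, and only this one was flagged. The DSP probe ILMN_1659749 was at 6.79 in N87-TR3, its highest level among the resistant lines. The DSC2 probe ILMN_2381257 differed between N87-TR3 and the other resistant lines by -2.95 on the log2 scale, past the test over all probes.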

How the results depend on the processing

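No paired analysis was possible because the sensitive group holds 1 array. The calls of PKP2 and JUP held under all 14 alternatives. PKP3, PPL, EVPL and LAD1 leave the test when detection is required on every array, and their direction is fixed under the others. With detection required on each of the 5 arrays, fewer genes were tested, and 831 genes were higher and 633 lower, in place of 1573 and 1322, with 2 members lower in place of 6. Over all alternatives 831 to 1996 genes were higher and 633 to 1778 lower. The count of higher members was 0 with the mean of a gene's detected probes, and 0 to 1 when each resistant line was left out in turn. The count of lower members was 7 without a detection filter, through PKP1, and with the mean of probes, through DSP. Differences of genes at background were smaller without background correction (-2.21 for PKP3, -2.56 for PPL, -4.05 for EVPL, -6.89 for LAD1) and with the authors' processed values (-2.41, -2.72, -4.23 and -7.05), all short of the bounds in the report. The median log2 difference of all genes was 0.07, and -0.04 with cyclic loess. For each line against the other 3 the count of members past the test was 0 under all alternatives run. The cause of the lost DSC2 call was not tested. The DSC2 probe in N87-TR3 was examined after seeing the data. Its difference ranged from -3.19 to -1.67, the latter short of the bound in the report.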
